A study of Mus musculus with 94 samples.

Results

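The genes described here serve the making and loading of red blood cells: Hba-a1 and Hbb-bt, which encode adult alpha and beta globin chains, Alas2, the erythroid enzyme that starts heme synthesis, Slc4a1, the band 3 anion exchanger of the red cell membrane, the transcription factors Klf1 and Gata1, Ahsp, the chaperone of free alpha globin, and Epor, the erythropoietin receptor. The list of genes was drawn up with earlier results of these data known, and its probes were then matched by gene symbol, or by current symbol through the Entrez ID. Of the 8 listed genes 7 matched, with 8 of the 25697 probes on the array: Gata1 had 2 probes, called probe 1 and probe 2 here. Ahsp matched no probe and was not analysed here. The Hba-a1 probe may also read the near-identical Hba-a2, and the Hbb-bt probe may read other adult beta globin genes, so the identity of each globin value is uncertain at that level.

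Red cells begin as precursors in haematopoietic tissue, where GATA1 and KLF1 switch on globin, heme and membrane genes while erythropoietin, read by its receptor, keeps the precursors alive. In the adult mouse the spleen still makes red cells beside the bone marrow, whereas brain, liver and thymus hold red cells mainly in their blood vessels. Circulating reticulocytes and red cells keep globin RNA and some Alas2 and Slc4a1 RNA, while Klf1, Gata1 and Epor RNA belongs mostly to the nucleated precursors.

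The series measured RNA from brain, liver, spleen and thymus of 24 male C57BL/6N mice, all 17 weeks old, on 94 Illumina bead arrays. There were 3 lines, each with homozygous animals of the genotype Hmgn1 mutant, Hmgn3 mutant or Hmgn5 mutant and wild-type animals; Hmgn genes encode proteins that bind nucleosomes. Every group of 1 tissue, line and genotype held 4 arrays, except the wild-type liver groups of the Hmgn1 and Hmgn5 lines, which held 3. Mutants are compared with the wild types of their own line. Each mouse gave 1 array per tissue, except that 1 wild-type mouse of the Hmgn1 line and 1 of the Hmgn5 line had no liver array. The kind of mutation was not given in the sources used here.

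Between 12238 and 16422 probes per array lay above a noise limit set from that array's negative values (limits of 2.46 to 11.1 intensity units). The number of arrays and the signal over this noise limit the precision. In the Hmgn3 line the 2 Hmgn3 probes fell in the mutants on the log2 scale, with changes of -1.70 and -1.78 in spleen, -1.46 and -1.45 in thymus and -0.55 and -0.56 in brain, while in liver -0.51 and -0.57 did not pass. In the Hmgn5 line the Hmgn5 probe fell by 1.08 in thymus and rose by 0.59 in liver, and its changes in spleen (-0.39) and brain (0.39) did not pass. The Hmgn1 probe passed in no tissue of its own line (thymus -0.41, adjusted p = 0.284), so "labelled mutant" is used throughout. Tissue markers followed the labels, with 4 of 4 B cell genes above noise on every spleen array and 4 of 5 liver genes on every liver array. In thymus 4 of 5 thymocyte genes were above noise on all arrays, and Cd8a on none.

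The promoters of 6 of the genes are shown because Klf1, Gata1 and Epor varied together in spleen, and Hba-a1, Hbb-bt and Alas2 in brain. Each is the 250 bases before the annotated start, read 5′ to 3′ on the gene's strand, from RefSeq on the build GRCm38.p6. Capitals mark the GATA words AGATAA and TGATAA or AGATAG and TGATAG, and the CACCC-type word CCNCNCCC, each on either strand; overlapping CCNCNCCC matches are counted separately.
Hba-a1: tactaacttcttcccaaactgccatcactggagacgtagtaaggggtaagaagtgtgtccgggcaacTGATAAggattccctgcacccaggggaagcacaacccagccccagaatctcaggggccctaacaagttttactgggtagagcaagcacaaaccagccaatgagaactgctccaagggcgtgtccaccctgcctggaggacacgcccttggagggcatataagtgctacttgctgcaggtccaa
Hbb-bt: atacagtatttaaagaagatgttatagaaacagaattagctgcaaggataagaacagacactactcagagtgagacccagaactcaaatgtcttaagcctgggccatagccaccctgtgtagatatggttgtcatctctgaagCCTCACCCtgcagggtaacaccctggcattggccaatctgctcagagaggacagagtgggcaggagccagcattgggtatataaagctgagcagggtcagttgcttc
Alas2: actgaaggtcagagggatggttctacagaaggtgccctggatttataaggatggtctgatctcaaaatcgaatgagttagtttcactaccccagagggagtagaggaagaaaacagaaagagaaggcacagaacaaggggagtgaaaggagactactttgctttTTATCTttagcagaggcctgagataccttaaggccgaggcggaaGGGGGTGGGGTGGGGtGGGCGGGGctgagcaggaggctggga
Klf1: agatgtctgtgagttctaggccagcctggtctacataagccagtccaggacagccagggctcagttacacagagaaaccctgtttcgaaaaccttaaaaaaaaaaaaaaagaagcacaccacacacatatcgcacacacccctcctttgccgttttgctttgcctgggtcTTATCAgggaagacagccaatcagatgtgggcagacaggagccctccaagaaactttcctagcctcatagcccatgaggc
Gata1: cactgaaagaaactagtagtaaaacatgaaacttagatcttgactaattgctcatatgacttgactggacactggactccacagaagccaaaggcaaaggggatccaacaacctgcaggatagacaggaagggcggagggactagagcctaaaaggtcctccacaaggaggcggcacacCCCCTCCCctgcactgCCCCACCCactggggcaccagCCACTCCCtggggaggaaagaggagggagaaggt
Epor: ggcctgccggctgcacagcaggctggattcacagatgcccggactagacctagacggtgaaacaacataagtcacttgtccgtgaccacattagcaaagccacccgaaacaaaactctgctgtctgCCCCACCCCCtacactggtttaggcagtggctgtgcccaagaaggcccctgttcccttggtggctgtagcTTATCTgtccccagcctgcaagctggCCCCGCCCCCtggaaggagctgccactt

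The sequence for Hba-a1 is chr11:32283422-32283671 (plus strand), for Hbb-bt chr7:103813924-103814173 (minus), for Alas2 chrX:150547167-150547416 (plus) and for Klf1 chr8:84901732-84901981 (plus). For Gata1 it is chrX:7967911-7968160 (minus), before a start that lies inside the annotated gene span, and for Epor chr9:21963577-21963826 (minus). Hba-a1, Alas2, Klf1 and Epor each held 1 GATA word, and Hbb-bt and Gata1 held none. Among 32851 promoters of the same length 26.5% held at least 1 GATA word. CCNCNCCC was found 4 times in Alas2, 4 times in Epor, 3 times in Gata1, once in Hbb-bt and in neither Hba-a1 nor Klf1, and 45.9% of the promoters held it. The bases CCAAT stood on either strand in Hba-a1, Hbb-bt and Klf1 (33.8% of promoters), and TATAAA in Hbb-bt and Alas2 (12.4%). These are matches of letters in a window and say nothing of binding.

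The first comparison was between tissues of the wild types, over 12 brain, 10 liver, 12 spleen and 12 thymus arrays. Of the 8 haemoglobin and erythroid probes, 7 were above noise on at least 11 of 12 spleen arrays and higher there than in brain and than in liver, from Slc4a1, with about 323-fold over brain, down to Epor, with about 2.43-fold, while Gata1 probe 2 lay near the noise. Hba-a1 stood at the ceiling of the joint scale on 10 of 12 spleen arrays, so no fold is given for it, and the differences of Hbb-bt and Epor from brain turned on the deposited values. Levels are intensities after the 46 arrays were quantile-normalized together, and differences are on the scale log2(intensity + 16), which understates the change of dim probes. In limma's fit over 21430 probes 35.7% were called higher and 32.5% lower in spleen than in brain, and 32.7% higher and 31.0% lower in spleen than in liver. All 8 member probes were called higher in both comparisons at an adjusted p below 0.05, Gata1 probe 2 against tissues where it was above noise on 1 of 12 brain and 0 of 10 liver arrays. In thymus against spleen 6 of 8 were lower and 0 higher, against 20.6% and 24.8% of all probes. Thymus against brain gave 3 higher and 1 lower (37.4% and 31.1% of all probes), thymus against liver 1 higher and 3 lower (33.5% and 30.8%), and liver against brain 4 higher and 0 lower (35.3% and 31.8%). In the deposited values each set of 1 tissue and line lay on a scale of its own, so a tissue difference there also carries the step between scales. On the values as deposited, without the joint step, the difference over all probes shifted by a median of -1.27 for spleen minus brain and -0.461 for spleen minus liver, and the members' counts fell. Slc4a1, Gata1 probe 1, Klf1 and Alas2 were then higher in spleen than in brain and Epor lower, against 7.61% of all probes higher and 72.6% lower. Slc4a1, Gata1 probe 1, Klf1 and Epor were higher in spleen than in liver and 0 members lower, against 14.2% and 48.6%. In whole tissue, fewer cells of a type and less RNA per cell cannot be told apart.

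Of the globins, Hba-a1 was near the top of the scale in every tissue. Its median was 10510 in brain (range 8590 to 16200), 11010 in liver (5573 to 15610), 19190 in thymus (8692 to 21860) and 21860 in spleen (20380 to 21860). On 10 of 12 spleen and 5 of 12 thymus arrays it stood at the ceiling that the joint normalization sets, so differences from these tissues are compressed. As deposited, the probe was the brightest of its array on 21 of 24 spleen arrays and on 15 of 24 thymus arrays, and on no brain or liver array. Spleen minus brain was 0.92 (SE 0.15, adjusted p = 3.3e-07) and spleen minus liver 1.11 (SE 0.15). On the deposited values the former was 0.08 (SE 0.20, adjusted p = 0.73) and the latter turned to -0.14. Brain and liver did not differ beyond their spread (-0.19, adjusted p = 0.27), nor did thymus and spleen (-0.31, adjusted p = 0.0854). Thymus minus brain, 0.61, and thymus minus liver, 0.80, turned to -0.20 and -0.43 on the deposited values.

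The Hbb-bt probe had medians of 174 in thymus, 242 in brain, 363 in liver and 914.5 in spleen. Spleen minus thymus was the clearest step: thymus stood 2.35 lower (SE 0.25, adjusted p = 3.1e-11), also on the deposited values. Spleen minus brain, 1.79, turned to -0.62 on the deposited values, and spleen minus liver, 1.08, to -0.29. Liver was 0.72 above brain in the joint fit, which turned to -0.33 on the deposited values and to -0.11 in the Hmgn5 line alone. Thymus was 0.56 below brain, a difference of 0.16 and 0.03 in the other direction in the Hmgn1 and Hmgn5 lines alone. The order of brain, liver and thymus for Hbb-bt is therefore not settled by these arrays.

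Alas2 separated the tissues more widely. Its median was 96.4 in brain (range 42.7 to 198.9), 350.5 in thymus, 1430 in liver (1161 to 1674) and 5454 in spleen, and brain and liver arrays did not overlap. Spleen minus brain was 5.45 (SE 0.19, adjusted p = 2e-29) and liver minus brain 3.65 (SE 0.20). Spleen minus liver was 1.80 (SE 0.20) in the joint fit, but 0.09 on the deposited values, where it did not pass (adjusted p = 0.79). Thymus minus spleen was -3.94 (SE 0.19), and thymus minus brain, 1.51, turned to -0.32 on the deposited values.

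Slc4a1 had the largest fitted differences between spleen and the other tissues among the members. Its median was 12040 in spleen against 20.2 in brain, 43.0 in liver and 59.5 in thymus. Spleen minus brain was 8.34 (SE 0.21, adjusted p = 1.3e-35), spleen minus liver 7.57 (SE 0.22) and thymus minus spleen -7.28 (SE 0.21), and all 3 kept their direction on the deposited values. Thymus and liver did not differ beyond their spread (0.29, adjusted p = 0.265). Liver minus brain, 0.77, and thymus minus brain, 1.05, turned to -0.36 and -0.34 on the deposited values.

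Among the transcription factors, Klf1 had a median of 156.7 in spleen and 44.0 in liver, where it lay above the noise on 10 of 10 arrays. In brain it lay above the noise on 6 of 12 arrays (median 2.96) and in thymus on 1 of 12 (median -2.48). Spleen minus brain was 3.16 (SE 0.14, adjusted p = 2.6e-25), spleen minus liver 1.54 (SE 0.15), and liver minus brain 1.62 (SE 0.15), while thymus and brain did not differ beyond their spread (-0.16, adjusted p = 0.334). At these dim levels the size of a difference depends on the added 16: with a floor of 1 instead, spleen minus brain was 5.75 and liver minus brain 3.90, and thymus minus brain, -0.96, passed (adjusted p = 0.00966). On the deposited values thymus minus brain was -0.46 and also passed (adjusted p = 0.0124). Spleen minus brain was 1.61 there, spleen minus liver 0.54 and liver minus brain 1.07. Gata1 probe 1 was above the noise on 11 of 12 spleen arrays (median 39.7), on 4 of 12 brain, 2 of 12 thymus and 0 of 10 liver arrays. On the joint scale spleen was therefore at least 2.66-fold above liver for this probe, the bound taken against the noise limit of each liver array (adjusted p = 4.1e-12 in the fit). On the deposited values the fitted spleen minus liver difference was smaller, 0.81 (adjusted p = 1.3e-07), so the bound holds for the joint scale only. Gata1 probe 2 stayed near the noise everywhere, above it on 4 of 12 spleen arrays. It passed over brain and over liver (adjusted p = 0.0118 and 0.0495), but its bound against the noise limits of the liver arrays was below 1, so no fold is given.

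Epor was a dim probe with a median of 77.7 in spleen, 17.0 in brain, 13.3 in liver and 13.1 in thymus. Spleen minus liver was 1.40 (SE 0.17, adjusted p = 4.7e-10) and thymus minus spleen -1.50 (SE 0.16). Spleen minus brain, 1.28, turned to -0.58 on the deposited values and passed in that direction (adjusted p = 4.1e-05). In the joint fit brain, liver and thymus did not differ beyond their spread, with differences between -0.22 and -0.10. On the deposited values liver minus brain was -1.11 (adjusted p = 1.3e-10) and thymus minus brain -1.28 (adjusted p = 5e-13). Over all probes these 2 differences shifted by medians of -0.78 and -1.08 without the joint step. Thymus minus liver was -0.17 on the deposited values and did not pass.

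**Figure D1:**
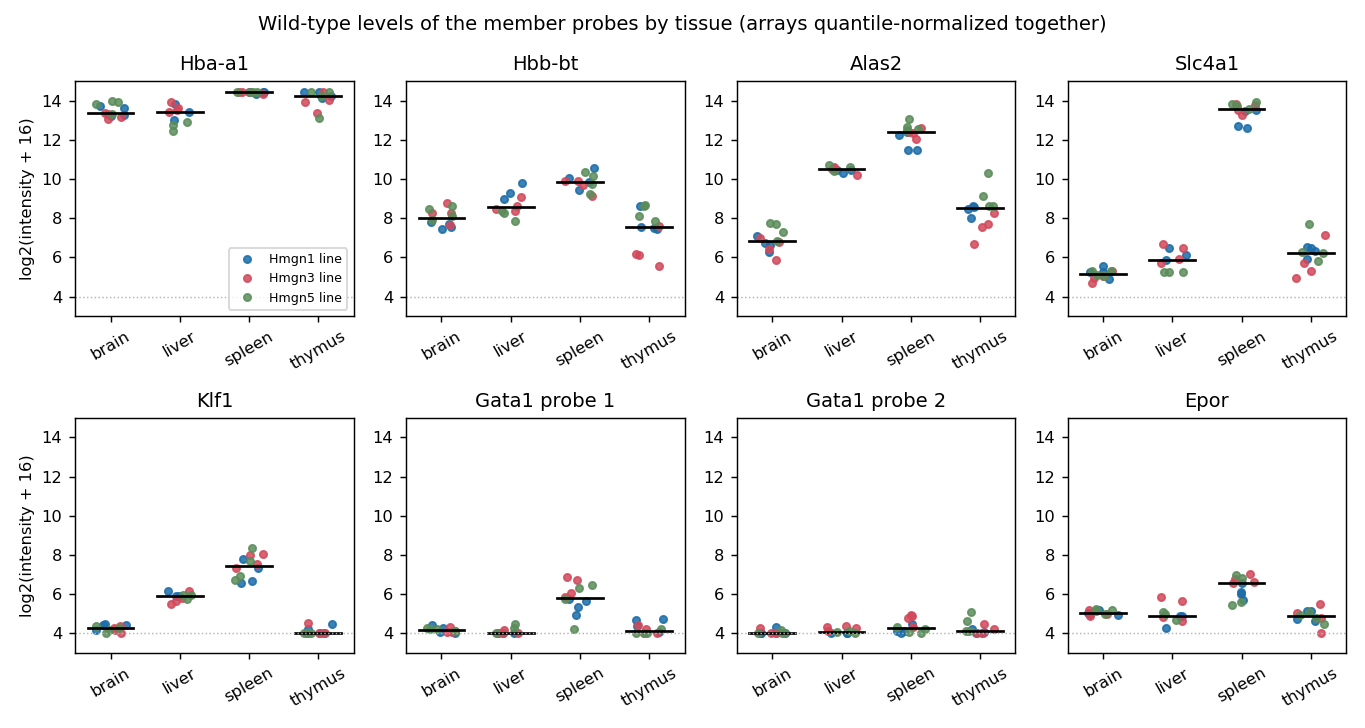
Wild-type levels of the 8 member probes in the 4 tissues, as log2(intensity + 16) after joint quantile normalization, with 1 point per array and the 3 lines in separate colours; black bars are medians and the dotted line is the value of an intensity of 0. Slc4a1 stands at a median intensity of 12040 in spleen against 20.2 to 59.5 elsewhere, and Hba-a1 stands at 5573 or higher in every tissue.

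Other erythroid genes were read from lists of pathway members in the contrast between the 2 lymphoid organs, where the joint normalization mattered least (median shift 0.216). Of 20 genes of late red cell maturation, 16 were lower in thymus and 1, Isg20, was higher, with a list median of -1.48 against 0.0128 over all probes. They included Trim10 (-5.61), Tspan33 (-4.03), Car2, a carbonic anhydrase of red cells (-3.65), and Blvrb, a biliverdin reductase (-2.88). Over all probes 20.6% were lower and 24.8% higher in this contrast. On the deposited values the counts were 13 lower and 2 higher, against 8.23% of all probes lower and 37.3% higher.

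Of 14 red cell membrane genes 9 were lower in thymus (list median -1.16), to be read against the same 20.6% of all probes, among them the blood group protein gene Kel (-4.62), Ermap (-3.23) and Ank1, which encodes the ankyrin that ties band 3 to spectrin (-2.38), and Sptb was higher (0.84). Of 7 heme synthesis genes 5 were lower (list median -0.656), with Fech, which inserts the iron, at -1.58 and Alad at -1.37, while Alas1, the enzyme of other tissues, was at 0.39 and did not pass. On the deposited values 7 membrane and 3 heme genes were lower and 1 of each was higher, against 8.23% and 37.3% of all probes. Of 9 iron genes 6 were lower (list median -0.581), led by the iron exporter Slc40a1 (-2.65), which is also a marker of red pulp macrophages, and Abcb10 (-1.96), with the transferrin receptor Tfrc at -1.07. Of 16 erythroid regulators, with a list median of -0.125, 7 were lower, including Tal1 (-3.69), Lmo2 (-3.87) and Nfe2 (-3.22), and 5 were higher, including Myb (1.34) and Runx1 (1.15). Among 7 further globin family probes 4 were lower (list median -0.341), with Hbb-b2 at -2.76 and Hbq1a at -2.04, and the muscle oxygen store Mb was higher (4.68). On the deposited values 4 iron genes and 3 globin family probes were lower and 1 of each higher, and of the regulators 6 were lower and 8 higher, with 37.3% of all probes higher. In spleen minus brain 13 of 16 regulators were higher in the joint fit (median 1.76, against 0.0665 over all probes). On the deposited values 6 were higher and 6 lower (median -0.0653, against -0.996 over all probes).

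**Figure D2:**
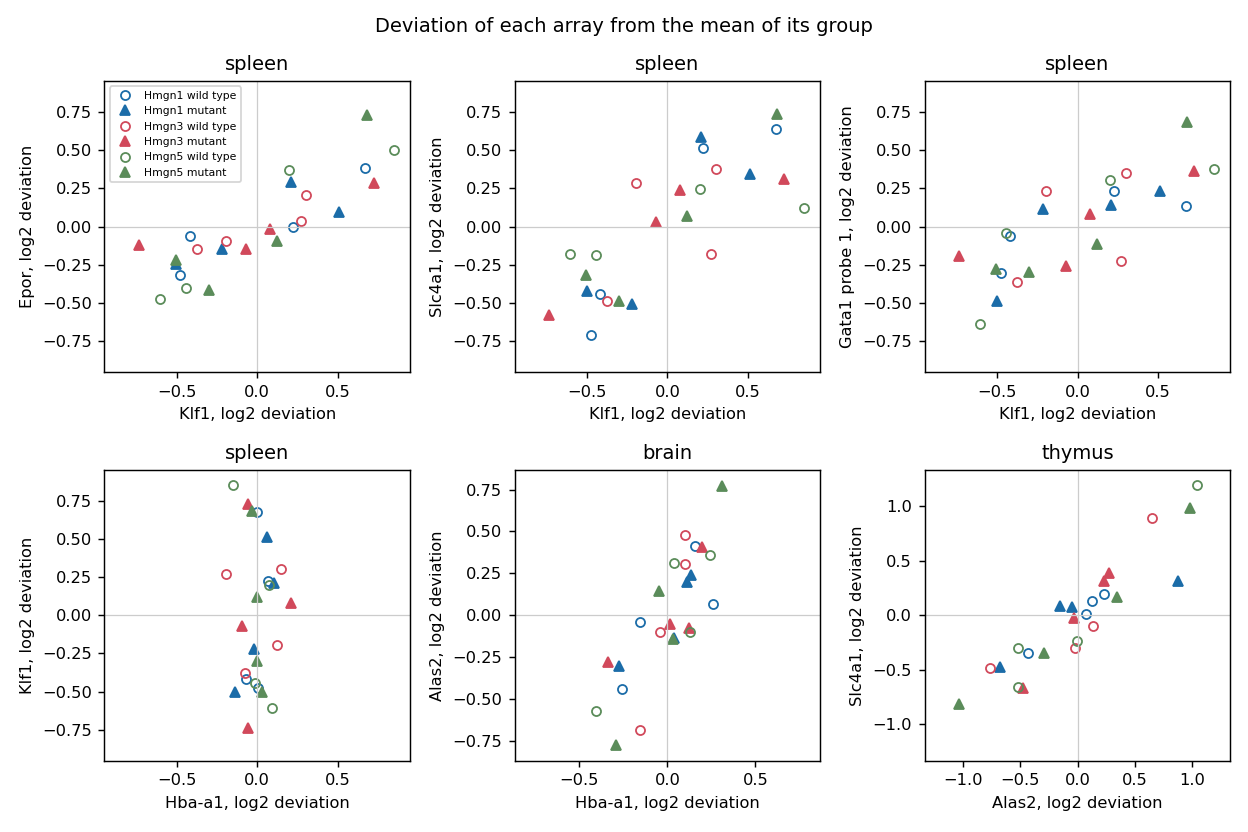
Deviation of each array from the mean of its group, on the log2(intensity + 16) scale, for pairs of member probes within 1 tissue, with 1 point per array and the 3 lines in separate colours. Klf1 rises with Epor (r = 0.857), Slc4a1 (0.797) and Gata1 probe 1 (0.779) in spleen but not with Hba-a1 (-0.01), whose spread there is small, and Hba-a1 with Alas2 in brain (0.816) and Alas2 with Slc4a1 in thymus (0.925) also rise together; open circles are wild types and filled triangles labelled mutants.

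Within groups, several members spread more between arrays than most probes, and in which tissue they did so depended on the gene. The residual standard deviation of Klf1 in spleen was 0.53 on the log2 scale, above 99.4% of 18519 probes, whose median was 0.17. Slc4a1 (0.49), Hbb-bt (0.40), Alas2 (0.39), Gata1 probe 1 (0.36) and Epor (0.35) also lay above 98.0% of the probes in spleen. Hba-a1 spread little there, 0.11, at the 10.8 percentile and near the top of the scale. In thymus Alas2 (0.61), Slc4a1 (0.58), Hbb-bt (0.51) and Hba-a1 (0.51) all lay above 97.6% of probes. In liver Hba-a1 (0.35), Hbb-bt (0.38) and Slc4a1 (0.35) lay at percentiles of 97.0 to 98.4, whereas Alas2 (0.20) and Klf1 (0.19) were near the median of 0.20. In brain Alas2 (0.44) and Hbb-bt (0.39) stood above 95.1% of probes, and Hba-a1 (0.23) did not. For the Gata1 probes where they lay near the noise, probe 2 in spleen and thymus and probe 1 in thymus and brain, the added 16 limits the spread: their SDs were 0.10 to 0.19 on this scale and 0.68 to 0.95 with a floor of 1.

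The deviations from the group means showed which members varied together. Over 36 relations, with Hba-a1 set against each other member in a tissue and Hba-a1 and Alas2 each compared between tissues of the same mouse, 3 passed by Pearson's r. The test was a permutation test with 100000 resamples and Benjamini-Hochberg adjustment. Hba-a1 and Alas2 in brain gave r = 0.816 and rho = 0.783 (permutation p = 2e-05, adjusted 0.00072; rho's p = 5e-05, adjusted 0.0018; 24 arrays). Without the 2 farthest arrays r was 0.806, and within the Hmgn1, Hmgn3 and Hmgn5 lines it was 0.816, 0.745 and 0.879. Hba-a1 and Hbb-bt in brain gave r = 0.769 and rho = 0.693 (permutation p = 4e-05, adjusted 0.00072; rho's p = 0.0005, adjusted 0.0060), 0.708 without the 2 farthest arrays, and 0.713, 0.895 and 0.80 within lines. In liver the same pair gave r = 0.889 and rho = 0.826 (permutation p = 0.00015, adjusted 0.0018; rho's p = 0.00049, adjusted 0.0060; 22 arrays), 0.844 without the 2 farthest, and 0.903, 0.953 and 0.583 within lines. Hba-a1 with Alas2 in liver gave r = 0.49 and did not pass. In thymus the same 2 genes gave r = 0.583 (permutation adjusted p = 0.0814) and rho = 0.587 (adjusted p = 0.0494), so they passed by rho only. Without the 2 farthest arrays their r was 0.557 and passed (adjusted p = 0.00612). Hba-a1 with Slc4a1 in thymus gave r = 0.536 (adjusted p = 0.333), and 0.62 without the 2 farthest arrays (adjusted p = 0.00612).

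In spleen Hba-a1 varied with no other member past the threshold (0 of 7 relations), and Hba-a1 and Klf1 gave r = -0.01. Its residual SD of 0.11 there, near the top of the scale, limits what a correlation can show. Nor did a mouse's deviation in 1 tissue follow its deviation in another, with 0 of 12 relations past the threshold and r between -0.26 and 0.18. The remaining pairs of members, and 5 marker lists of other cell types against a member, were computed after the first values had been seen. In spleen 8 of 21 such pairs passed, all positive, in permutation tests over 24 arrays. The highest were Epor with Klf1 (r = 0.857, adjusted p = 0.000673), Epor with Gata1 probe 1 (0.835, adjusted p = 0.000842), Klf1 with Slc4a1 (0.797, adjusted p = 0.000842) and Klf1 with Gata1 probe 1 (0.779, adjusted p = 0.00114). Hbb-bt joined them with Gata1 probe 1 (0.691) and Klf1 (0.689), while Alas2 with Klf1 gave 0.164. Gata1 probe 2, near the noise, gave 0.159 with Klf1, 0.219 with Epor and 0.185 with probe 1, and none of these passed. In thymus 1 of 15 pairs passed, Alas2 with Slc4a1 (0.925), in brain 1 of 15, Alas2 with Hbb-bt (0.823), and in liver 0 of 10. The marker lists of platelets, neutrophils, skeletal muscle, red pulp macrophages and endothelium passed by r in 0 of 40 relations; endothelium with Hba-a1 in thymus was the highest (r = 0.619, adjusted p = 0.109; rho = 0.628, adjusted p = 0.0366).

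The genes most like Klf1 in spleen, by Pearson's r of deviations over the same 24 arrays, were Mgst3 (0.927), Ank1 (0.923), the transferrin receptor gene Tfrc (0.923), Slc38a5 (0.918) and the water channel gene Aqp1 (0.917). Those most like Hba-a1 there were Rpl23 (0.868), Banf1 (0.779), Rpl38 (0.775), Rplp1 (0.775) and Fxyd5 (0.736). By level over all 94 arrays, Hba-a1 was most like Zmat5 (0.863), Coro1a (0.862) and Arhgap27 (0.857), and Klf1 most like Tcf21 (0.951), Gm2a (0.945) and Tmem51 (0.944). These correlations share tissues and normalization and are descriptions.

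The second comparison was labelled mutant minus wild type, in each of 3 lines and 4 tissues. No haemoglobin or erythroid probe changed past the threshold in any of the 12 comparisons: in limma's test with Benjamini-Hochberg adjustment over all probes of a tissue, 0 of 84 member tests passed, 13 had an unadjusted p below 0.05, and the smallest adjusted p was 0.102. Over all probes, the share called was 0%, 0.0104% and 0.0208% in brain for the Hmgn1, Hmgn3 and Hmgn5 lines, and 0.0318%, 0% and 0.42% in liver. It was 3.09%, 2.11% and 0.902% in spleen, and 0.0494%, 0.011% and 0.0934% in thymus. Unadjusted p-values below 0.05 were held by 19.2%, 15.2% and 14.5% of all probes in spleen for the same lines, by 3.87%, 10.7% and 8.95% in brain, by 8.37%, 6.31% and 9.14% in thymus and by 8.09%, 4.86% and 11.1% in liver. The members' count of 13 in 84, over tissues and lines, is read against these. Of the 84 log2 changes 37 were above 0 and 47 below, between -1.19 and 1.38. In 6 of them the 2 groups did not overlap: Hba-a1 in liver of the Hmgn3 and Hmgn5 lines and in spleen of the Hmgn1 line, Slc4a1 in Hmgn5 liver, Gata1 probe 1 in Hmgn3 brain and Gata1 probe 2 in Hmgn3 spleen. Over all probes the groups did not overlap for 4.22%, 3.41% and 4.67% in brain of the Hmgn1, Hmgn3 and Hmgn5 lines and for 10.1%, 7.77% and 7.83% in spleen. The shares were 7.4%, 3.36% and 10.6% in liver and 6.04%, 5.32% and 3.15% in thymus. Half-widths of the 95% confidence intervals ran from 0.184 to 0.668 for Hba-a1 and from 0.506 to 0.668 for Hbb-bt.

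**Figure D3:**
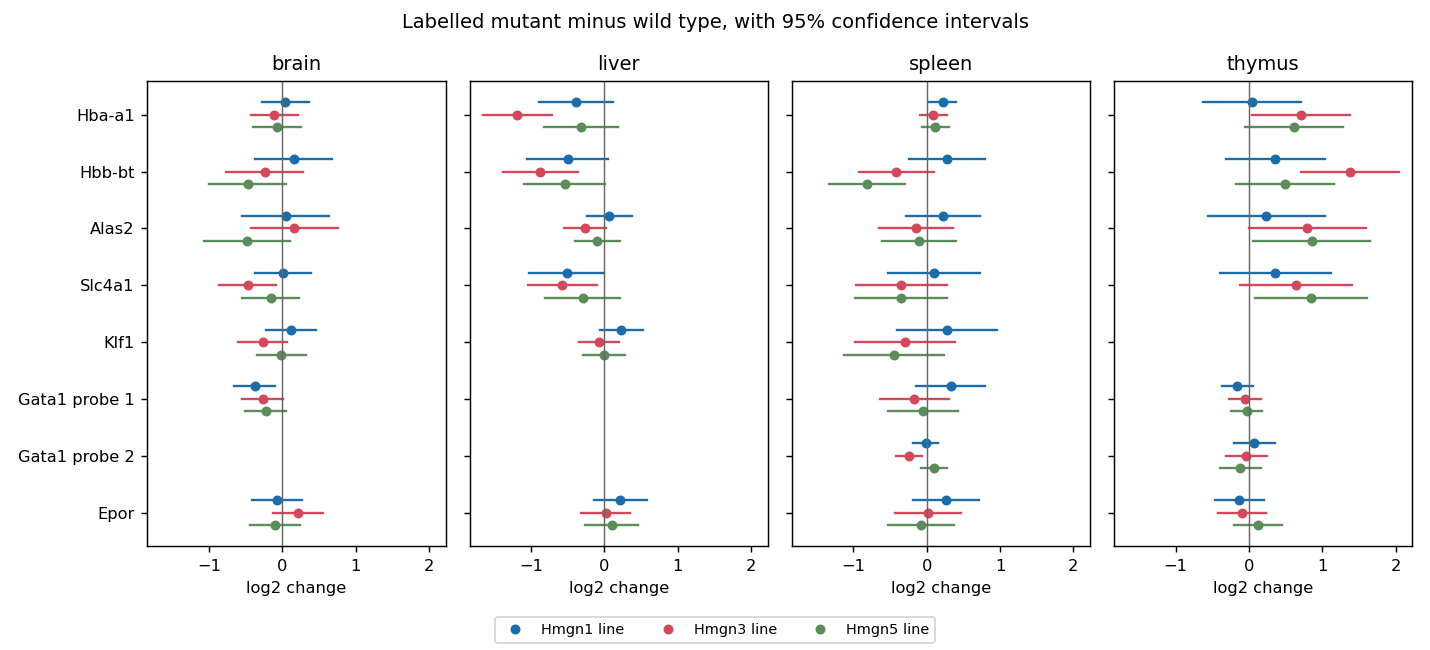
Labelled mutant minus wild type for each member probe in the 4 tissues, as log2 changes with 95% confidence intervals, with the 3 lines in separate colours; probes too dim for the test in a tissue have no point. The points farthest from 0 are Hba-a1 in liver (-1.19) and Hbb-bt in thymus (1.38), both in the Hmgn3 line, and neither passed after adjustment.

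Hba-a1 in liver was the member with the lowest value of the set. In the Hmgn3 line its intensity was 16167, 14002, 14436 and 21844 in the wild types and 12497, 7151, 6713 and 4407 in the labelled mutants. All 4 mutant arrays lay below all 4 wild-type arrays. The difference was -1.19 (SE 0.22, 95% interval -1.65 to -0.72), with an unadjusted p of 3.2e-05 and an adjusted p of 0.18 in limma's fit. Without mutant replicate 1, the highest of the mutants, it was -1.45 (SE 0.19) with an adjusted p of 0.00452, the only setting in which it passed. The Hmgn1 and Hmgn5 lines gave -0.39 and -0.32. In the Hmgn5 line the wild types read 14422, 16009 and 12150 and the mutants 10793, 11007, 11513 and 11877, again without overlap.

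Hbb-bt in liver lay on the same side in all 3 lines. In the Hmgn3 line the wild types read 158.6, 143.7, 179.8 and 274.3 and the labelled mutants 166.3, 86.1, 83.0 and 60.4, a difference of -0.87 (adjusted p = 0.631). Mutant replicate 1 was again the highest of its group and lay among the wild types. The Hmgn1 and Hmgn5 lines gave -0.50 and -0.54, neither passing, and the former was -0.25 without wild-type replicate 1. Slc4a1 in liver gave -0.51, -0.58 and -0.30 in the Hmgn1, Hmgn3 and Hmgn5 lines, and 0 of these passed; the first was -0.33 without wild-type replicate 2. Klf1 and Alas2 in liver gave changes between -0.27 and 0.23. Neutrophil and platelet marker sums in the Hmgn3 livers were low in both groups, at 8.47 to 67.5 and 16.5 to 51.1 in wild types and 17.0 to 37.2 and 17.98 to 33.2 in mutants, and their part in the result was not tested. Among the platelet markers Gp1bb, Gp5 and Ppbp were above noise on no array of either group. The sum of 5 endothelial genes was 411.4 to 495.4 in the Hmgn3 wild-type livers and 578.1 to 678.5 in the mutants, without overlap, with 4 of 5 genes above 0, 2 unadjusted p-values below 0.05 and 0 passing (smallest adjusted p = 0.18). The sum of 7 red pulp macrophage genes was 856.5 to 1190 and 943.9 to 1670, with 4 of 6 tested genes above 0, 0 passing and Cd5l and Spic above noise on no array of either group. The part of these markers in the result was not tested.

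**Figure D4:**
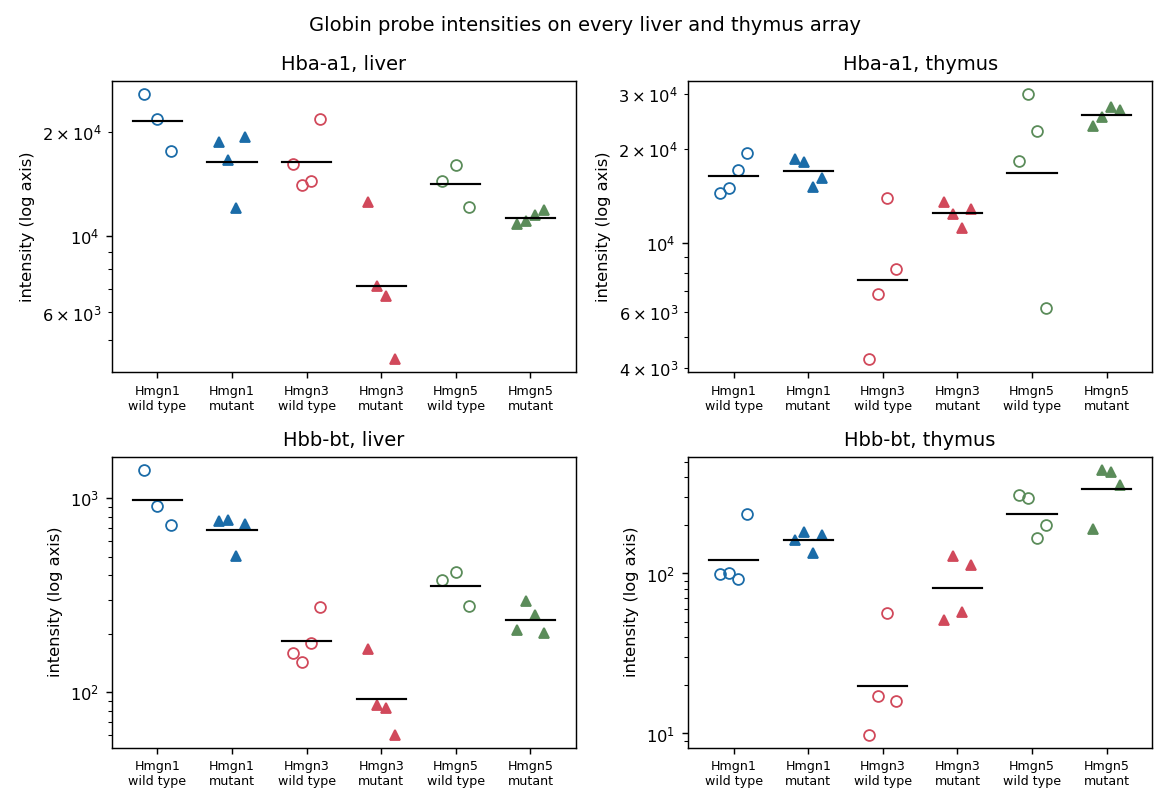
Intensities of the Hba-a1 and Hbb-bt probes on every liver and thymus array, on log axes, with 1 point per array by line and genotype. In the Hmgn3 line the mutant livers read 4407 to 12497 for Hba-a1 against 14002 to 21844 in wild types, and the mutant thymuses 51.2 to 128.0 for Hbb-bt against 9.85 to 56.8.

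In thymus the globin, Alas2 and Slc4a1 differences were above 0 in all 3 lines, and 0 of them passed; in the Hmgn1 line they were 0.05 for Hba-a1, 0.36 for Hbb-bt, 0.24 for Alas2 and 0.36 for Slc4a1. Hbb-bt in the Hmgn3 line read 9.85, 17.2, 56.8 and 16 in the wild types and 51.2, 128.0, 57.2 and 112.6 in the labelled mutants. Wild-type replicate 3 overlapped the mutants, and the others lay below every mutant. The difference was 1.38 (SE 0.32, adjusted p = 0.332). Hba-a1 on the same arrays read 4265, 6861, 13953 and 8257 in wild types and 13524, 12340, 11171 and 12858 in mutants, a difference of 0.71 that did not pass (0.43 without wild-type replicate 1). The same wild-type array, replicate 3, was the highest of its group for both globins. Hba-a1 in the Hmgn5 line differed by 0.62, with the low value of 6218 in wild-type replicate 4 against 18244 to 29853 in the others, and without that array it was 0.15 (adjusted p = 0.88).

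Alas2 in thymus differed by 0.79 in the Hmgn3 line and 0.86 in the Hmgn5 line. In the Hmgn5 line it read 298.3, 912.8, 432.7 and 298.3 in wild types and 383.2, 1595, 1016 and 650.4 in mutants, and the groups overlapped. Slc4a1 there read 29.3, 147.0, 44.9 and 42.0 in wild types and 57.5, 238.8, 128.2 and 85.5 in mutants, a difference of 0.85 that did not pass. For both genes replicate 2 was the highest of each genotype; without the mutant one the differences were 0.53 and 0.52. Klf1 was too dim in thymus to be tested.

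Markers of other cell types differed between thymus arrays. The sum of 14 skeletal muscle genes in the Hmgn3 line was 248.1 to 1283 in the wild types and 519.4 to 9188 in the mutants, where mutant replicates 1 and 3, the 2 lowest for Hbb-bt, were the highest for muscle. Over the 24 thymus arrays the muscle sum and Hbb-bt gave r = 0.006 (permutation adjusted p = 0.992; rho = 0.057, adjusted p = 0.963), and within the Hmgn3 line r = -0.62. Mybpc2 and Myh1 were above noise on no wild-type array of this line. Without the 4 thymus arrays of highest muscle score, a choice made after seeing the data, Hbb-bt differed by 1.86 (adjusted p = 0.313, 2 mutants against 4 wild types) and 0 members passed. In the Hmgn5 line the sum of 7 platelet genes was 93.9 to 139.3 in wild types and 69.5 to 450.2 in mutants, with mutant replicate 2 the highest, and Itga2b and Treml1 were above noise on no wild-type array. The part of platelets in the result was not tested.

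In spleen, where the precursor genes are measured best, the members' changes lay between -0.81 and 0.33 and differed in sign. Hba-a1 in the Hmgn1 line read 16837, 17646, 18477 and 17706 in wild types and 18600, 22025, 21399 and 20227 in labelled mutants. The groups did not overlap, and the difference was 0.22 (SE 0.089, adjusted p = 0.172). Quantile normalization of the lines together sets a ceiling on the brightest probes; with it the residual SD of Hba-a1 fell from 0.112 to 0.0401 and the difference was 0.03, so that value does not bear on the change. In the same line 7 of 8 member probes were above 0, with a median of 0.244 against 0.00617 over all probes. In the Hmgn3 and Hmgn5 lines 6 of 8 were below 0 in each, with medians of -0.202 and -0.091.

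Hbb-bt in the Hmgn5 line had the smallest adjusted p of the set. Its spleen values were 385.2, 333.0, 178.1 and 250.2 in wild types and 167.5, 196.2, 81.9 and 184.1 in mutants. Only wild-type replicate 3 overlapped the mutants, and its mouse was the 1 placed in its line by elimination. The difference was -0.81 (SE 0.25, adjusted p = 0.102), against -0.41 in the Hmgn3 line and 0.27 in the Hmgn1 line. Without wild-type replicate 3 it was -1.01 (adjusted p = 0.0656). With all arrays kept, it passed with the replicate number as a block (adjusted p = 0.0277). Same-numbered wild-type and mutant arrays of these spleens did not deviate together (correlations of -0.446 to 0.0423), and the numbers were not used as pairs elsewhere. The sum of 7 platelet genes in these Hmgn5 spleens was 427.8 to 733.8 in wild types and 338.5 to 515.4 in mutants, with 6 of 7 genes below 0 (median -0.21), while 3 of 7 neutrophil genes were below 0, and their part was not tested. In the Hmgn3 spleens 6 of 7 platelet and 7 of 7 neutrophil genes (median -0.175) were below 0, and their part was not tested either. Klf1 in spleen gave 0.28, -0.30 and -0.44 in the Hmgn1, Hmgn3 and Hmgn5 lines, with half-widths of up to 0.68, and Slc4a1 gave 0.10, -0.34 and -0.35. Without wild-type replicate 2 the Klf1 change in the Hmgn5 line was -0.16. Epor and Gata1 probe 1 lay between -0.17 and 0.33 in spleen. Gata1 probe 2 in the Hmgn3 line read 4.03, 4.37, 3.60 and 1.117 in wild types and -0.94, 0.049, 0.49 and 0.70 in mutants, where it was above noise on 0 of 4 arrays. The groups did not overlap, and the mutants were at least 1.04-fold lower by the noise limit (unadjusted p = 0.0098, adjusted p = 0.144). In brain the changes lay between -0.48 and 0.21, and Alas2 (-0.48) and Hbb-bt (-0.47) in the Hmgn5 line and Slc4a1 in the Hmgn3 line (-0.47) were the lowest; without mutant replicate 4 the first pair were -0.22 and -0.21. In the Hmgn3 brains 7 of 7 neutrophil genes were below 0 (median -0.544, smallest adjusted p = 0.052, 0 passing), and their sum was 155.6 to 315.2 in wild types and 67.4 to 121.3 in mutants, without overlap, with Retnlg above noise on no mutant array. In the Hmgn5 brains 6 of 7 were above 0. The part of neutrophils in the brain values was not tested.

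Whether the changes differed between tissues or lines was tested with F tests in limma. Hbb-bt in the Hmgn3 line differed between tissues (adjusted p = 0.0348), in a test that called 0.139% of 20815 probes. In the separate fit of each tissue its change was negative in liver (-0.87), spleen (-0.41) and brain (-0.24) and positive in thymus (1.38). With a floor of 1 in place of the added 16 the adjusted p of the F test was 0.0719. The arrays of the line were quantile-normalized together for this test. On the deposited values, without that step, the adjusted p of Hbb-bt was 0.0385. Hba-a1 in the same line missed the threshold (adjusted p = 0.0587), and passed only on the deposited values (0.0385). In the Hmgn1 and Hmgn5 lines 0 member probes passed between tissues, with 0.525% and 0.299% of probes called. Between lines 0 member probes passed in any tissue, where 0.172% of probes were called in liver, 0.0494% in thymus, 0.0162% in spleen and 0.00521% in brain.

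The wider erythroid lists held a called gene in 2 of 12 comparisons: 1 of 16 regulators in the Hmgn5 spleens, where 0.902% of all probes were called, and 1 of 7 other globin family genes in the Hmgn1 spleens, where 3.09% were. Lmo2, a partner of TAL1 and GATA1 in red cell precursors, read 715.3, 683.3, 638.7 and 651.4 in wild-type spleens of the Hmgn5 line and 539.1, 449.3, 396.8 and 431.0 in those of the labelled mutants. It fell by 0.56 (SE 0.13, adjusted p = 0.0436), without overlap, but the call was lost when 1 array was left out in 6 of 8 cases, all but wild-type replicate 4 and mutant replicate 1 (adjusted p of 0.0656 to 0.146), and with muscle score as a covariate (-0.35, adjusted p = 0.389). Cygb, a globin of other cells, read 55.2, 87.9, 88.6 and 80.9 in wild-type spleens of the Hmgn1 line and 165.6, 148.7, 126.4 and 155.0 in the mutants. It rose by 0.82 (SE 0.19, adjusted p = 0.0244), without overlap, and lost the call in 5 of 8 cases, without wild-type replicate 1 or 2 or mutant replicate 2, 3 or 4 (adjusted p of 0.058 to 0.121). Beside these, the mast cell gene Cpa3, 1 of 4 on its list, rose by 0.86 in the Hmgn5 spleens (adjusted p = 0.0317), where 0 of 7 platelet genes passed. In the Hmgn1 spleens Spic, 1 of 6 red pulp macrophage genes (-0.61, adjusted p = 0.0279), and Fcer2a, 1 of 4 B cell genes (-0.62, adjusted p = 0.0288), fell. Their part was not tested.

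In the Hmgn5 spleens the other genes lay mostly below 0: 17 of 20 late maturation genes (median -0.264), 11 of 14 membrane genes (median -0.281) and 5 of 7 heme synthesis genes (median -0.257), against 0.00396 over all probes, and 0 of them passed. In the Hmgn3 spleens 14 of 20, 11 of 14 and 6 of 7 were below 0, with medians of -0.127, -0.165 and -0.138, and in the Hmgn1 spleens 9 of 20, 3 of 14 and 4 of 7. Of the genes responding to erythropoietin, 0 of 8 passed in spleen or thymus of any line, with 4, 2 and 3 unadjusted p-values below 0.05 in thymus of the Hmgn1, Hmgn3 and Hmgn5 lines (8.37%, 6.31% and 9.14% of all probes) and 2, 0 and 1 in spleen (19.2%, 15.2% and 14.5%).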

How the data were processed

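RNA of 4 tissues was labelled as biotinylated cRNA and hybridised to Illumina bead arrays, per the labels' protocols, and read with GenomeStudio 2011.1, per the submitters' processing notes. The deposited values are intensities per probe on a linear scale, already background-subtracted as judged from the 19.1% to 29.1% of values below 0 per array. How the authors normalized them was not stated in the sources used here. Array medians were nearly equal within each set of 1 tissue and line but differed between sets. They were 24.1 to 24.3 in brain of the Hmgn1 line and 2.65 to 2.66 in spleen of the Hmgn5 line. The sets thus appear to have been normalized apart, and tissue differences on the deposited values compare sets of different scale. Another table with 188 columns of sample values was not used, since its column names match no label. Wild types were placed in lines by the mouse numbers in the labels, 1 mouse by elimination. Members and lists were chosen with earlier results of these data known.

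Intensities below 0 were set to 0 and all were taken to log2(intensity + 16). A probe entered a tissue's fit if it exceeded 1.645 times the root mean square of the array's negative values on at least 3 arrays. Labelled mutants were compared with limma 3.58.1 in R 4.3.3, with 1 fit per tissue over 6 groups and Benjamini-Hochberg adjustment over all probes at 0.05. Tissues were compared over the wild types after joint quantile normalization, with line as a term and mouse as a random block. Correlations were run in Python 3.11.15 with numpy 2.4.6, pandas 2.3.3 and scipy 1.17.1. All members are named, other genes by likeness to Hba-a1 and Klf1, by passing the test, or as the 2 to 4 farthest of a list. Where several probes matched a listed gene, 1 probe was used. On simulated data for Hmgn3 liver (15732 probes) 53.7% of log2 changes of 0.5 and 98.5% of changes of 1 were recovered. For Hmgn3 thymus (18202 probes) the shares were 38.8% and 95.5%. The changed probes were drawn at random from all probes, whose median residual SD was 0.20 in each tissue. Hba-a1 in liver (0.35) and Hbb-bt in thymus (0.51) spread more, so these shares do not apply to them. Mice of a group are separate animals. Alternatives covered the floor, the filter, array weights, the normalization, the replicate block, a muscle covariate and each replicate left out.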

Additional observations from a re-analysis of the deposited data

Results flagged for a closer look

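Of 117 groups of 4 arrays tested for a single far array, 6 held one (5.13%); chance gives about 1 in 20. Alas2 in liver of the Hmgn3 line read 721.9 in wild-type replicate 2 against 957.5 to 1012 in the others. Gata1 probe 1 in spleen of the Hmgn1 line read 9.50 in mutant replicate 1 against 22.7 to 26.1. Hba-a1 in spleen of the Hmgn3 line read 19545 in mutant replicate 2 against 15810 to 16240. Hbb-bt stood apart in 3 groups: 248.7 in brain, Hmgn3 mutant replicate 3, against 475.8 to 501.4; 504.7 in liver, Hmgn1 mutant replicate 3, against 736.7 to 766.9; and 236.6 in thymus, Hmgn1 wild-type replicate 4, against 92.6 to 101.3. The change of Hbb-bt in the Hmgn3 line differed between tissues by the F test in limma (adjusted p = 0.0348).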

How the results depend on the processing

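Of the 245 alternative values of single member changes, 243 stayed on their side of the threshold, and 2 passed where the value as reported had not: Hba-a1 in Hmgn3 liver without mutant replicate 1 (adjusted p = 0.00452) and Hbb-bt in Hmgn5 spleen with a replicate block (-0.81, adjusted p = 0.0277). The count of called members was therefore 0 to 1 in Hmgn3 liver over the settings without 1 replicate, and 1 in Hmgn5 spleen with the replicate block. Same-numbered mutant and wild-type arrays did not deviate together in every pair of any comparison (correlations of -0.446 to 0.484), so the numbers were not used as pairs in the reported values. This does not show that pairs are absent. In brain of the Hmgn1 line 3 of 4 wild types correlated best with the mutant of their own number, and in spleen of the Hmgn5 line 0 of 4 did. The count of members whose change in the Hmgn3 line differed between tissues was 1, 0 with a floor of 1 and 2 on the deposited values, without joint normalization. Of 864 alternative tissue differences 15 turned. On the deposited values liver minus brain was -0.358 for Slc4a1 and -0.329 for Hbb-bt, spleen minus brain -0.619 for Hbb-bt and -0.581 for Epor, and thymus minus brain -0.203 for Hba-a1, -0.339 for Slc4a1 and -0.321 for Alas2. Spleen minus liver was -0.144 for Hba-a1 and -0.290 for Hbb-bt, and thymus minus liver -0.429 for Hba-a1, with 5 members past the threshold in spleen minus brain and 4 in spleen minus liver. In 1 line alone, liver minus brain was 0.492 for Hba-a1 (Hmgn3) and -0.112 for Hbb-bt (Hmgn5). Thymus minus brain was 0.16 (Hmgn1) and 0.0322 (Hmgn5), and thymus minus liver 0.145 (Hmgn5), all for Hbb-bt. With a floor of 1, which widens dim probes by its construction, the members' median residual SD was 0.772 in thymus, 0.578 in spleen, 0.445 in brain and 0.380 in liver. Relations past the threshold by r numbered 3, 5 without the 2 farthest arrays and 0 in each line alone, where fewer arrays entered. Lmo2 also lost its call with a floor of 1 (adjusted p = 0.112), with no filter (0.0729) and with its line's arrays alone (0.0569), and Cygb with a floor of 1 (0.142), with the lines normalized together (0.0546) and with its line's arrays alone (0.071). The causes of the other changes were not tested. The signal over noise limits Klf1 in brain and thymus, Gata1 probe 1 outside spleen, and Gata1 probe 2 in all 4 tissues.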
